A study of Mus musculus with 13 samples.

Results

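The data were 5-hydroxymethylcytosine (5hmC) percentages in the 300 kb genome bins that hold 8 genes of middle T signalling and mammary oncogenesis: Src, Shc1, Pik3r1, Pik3ca, Plcg1, Akt1, Ccnd1 and Myc. The bins were those that the annotated gene bodies overlap, whatever their 5hmC, but the genes were chosen with earlier results of these data known. This gave 10 bins of 9097, since Pik3r1 and Pik3ca each cross a bin boundary. All 10 were among the 8576 bins tested and lay above 0 in all 13 tumours. Measurements came from shallow tet-assisted bisulfite sequencing (TAB-seq), in which 5hmC is protected so that it still reads as cytosine after conversion. The 13 breast tumours came from FVB mice, 1 tumour per mouse, and had been induced by PyMT, the middle T oncogene of polyoma virus, and they fell into 4 groups. Tumours of 16-week-old mice were Phd2+/- (n = 4), with 1 working copy of the oxygen sensor PHD2, or Phd2+/+ (n = 3). Tumours of 12-week-old mice came from animals injected hydrodynamically with the plasmid PRRL2-sFlk1 (n = 3), which encodes a soluble VEGF receptor, or with empty PRRL2 (n = 3). Per the labels, vessels and oxygenation are restored in Phd2+/- tumours, whereas sFlk1 makes tumours more hypoxic. The promoter that drives PyMT is not given in the sources used here. As whole tumours were measured, a different mix of cells and a different 5hmC content per cell cannot be told apart, and 5hmC in 300 kb bins does not check the tissue against marker genes.

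Middle T is a viral membrane protein without enzymatic activity of its own. It binds the phosphatase PP2A and a Src family kinase, and the kinase phosphorylates it on tyrosines that dock the adaptor SHC1, the p85 regulatory subunit of PI3-kinase and the phospholipase PLCG1. Signals then run through Ras and MAP kinases and through AKT1 to growth regulators such as cyclin D1 and MYC. 5hmC is made from 5-methylcytosine by TET dioxygenases, which need oxygen, and in mammalian tissues it is found mainly in the bodies and enhancers of active genes.

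Each value covers a whole bin, of which these genes fill a small share. Myc (5.02 kb) takes up 1.67% of its bin on chromosome 15, from 61800001 to 62100000, and the bin has no other protein-coding gene. It does hold the start of the long non-coding RNA gene Pvt1. Ccnd1 (9.90 kb) takes up 3.30% of its bin on chromosome 7, from 144900001 to 145200000, beside Fgf15, LTO1 and Tpcn2. Shc1 (11.5 kb) shares its bin on chromosome 3, from 89400001 to 89700000, with 7 other genes, and Akt1 (21.1 kb) shares the bin on chromosome 12, from 112500001 to 112800000, with 9. Src (47.9 kb) lies with 5 other genes on chromosome 2, from 157200001 to 157500000, and Plcg1 (44.5 kb) with Top1 and Zhx3 on the same chromosome, from 160500001 to 160800000. Coordinates are GRCm38, the build whose chromosome lengths the bins match.

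Pik3ca and Pik3r1 are shown in sequence because a bin boundary crosses each gene, so that parts of each lie in bins with different values. No bin value is that of a start alone, and the outer start of Pik3r1 shares its bin with most of the gene. The first 2.94 kb of Pik3ca lie in the bin of chromosome 3 from 32100001 to 32400000, and the other 66.1 kb in the next, from 32400001 to 32700000. Of Pik3r1, 68.2 kb with the outer start lie in the bin of chromosome 13 from 101700001 to 102000000. The other 19.2 kb, with an inner start, lie in the bin from 101400001 to 101700000. The windows of 300 bases are RefSeq promoters of GRCm38.p6, 250 bases before to 50 after a start, with CpG dinucleotides, written CG and the same on both strands, in capitals. The Pik3ca window is chr3:32396815-32397114 on the plus strand. Those of Pik3r1, both on the minus strand, are chr13:101768168-101768467 (outer start) and chr13:101692581-101692880 (inner start).
Pik3ca: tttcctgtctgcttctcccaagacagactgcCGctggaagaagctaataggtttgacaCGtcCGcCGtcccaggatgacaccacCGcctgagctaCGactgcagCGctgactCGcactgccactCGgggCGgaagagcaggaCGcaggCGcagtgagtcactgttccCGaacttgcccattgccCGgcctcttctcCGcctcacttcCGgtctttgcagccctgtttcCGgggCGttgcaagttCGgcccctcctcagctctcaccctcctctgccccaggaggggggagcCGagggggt
Pik3r1 outer start: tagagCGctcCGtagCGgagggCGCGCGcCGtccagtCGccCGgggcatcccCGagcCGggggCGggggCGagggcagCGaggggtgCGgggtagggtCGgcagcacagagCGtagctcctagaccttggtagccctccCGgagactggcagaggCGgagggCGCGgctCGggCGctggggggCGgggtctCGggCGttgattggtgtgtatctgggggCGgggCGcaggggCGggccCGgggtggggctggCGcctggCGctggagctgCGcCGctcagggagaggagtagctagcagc
Pik3r1 inner start: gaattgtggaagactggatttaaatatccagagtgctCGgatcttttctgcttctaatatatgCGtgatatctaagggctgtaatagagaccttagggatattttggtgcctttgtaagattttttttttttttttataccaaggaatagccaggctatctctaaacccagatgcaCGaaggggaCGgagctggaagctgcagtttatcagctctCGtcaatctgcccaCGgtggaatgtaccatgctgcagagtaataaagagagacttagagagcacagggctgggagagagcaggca
The Pik3ca window holds 20 CpGs, a number that 26.5% of 32851 promoter windows reach or exceed. The outer Pik3r1 window holds 34 (reached by 7.73%) and the inner one 6 (56.4%). At least 1 CG is present in 94.6% of all windows. Windows were matched for 6 of the 8 genes. The bins do not resolve 5hmC within such a window.

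Over all 13 tumours, the bins of these genes carried more 5hmC than most of the genome. Against a mean of 2.61% over all bins tested, 9 of the 10 lay above, from 3.51% at Akt1 to 7.97% in the main bin of Pik3r1, the one with most of the gene. That bin was 16th from the top of 8576. The boundary bin of Pik3r1 held 6.63% and that of Myc 5.89%, at the 98.5th and 96.0th percentiles of all bins. Plcg1 (4.48%), the main bin of Pik3ca (4.27%), Ccnd1 (4.24%) and Src (4.09%) lay between the 78.7th and the 84.4th percentile, and Shc1 (3.69%) and Akt1 (3.51%) at the 72.4th and 69.4th. The bin with the start of Pik3ca was the exception, at 1.92% and the 42.3rd percentile. In this order, the mean difference between neighbours was smaller than its SD over the 13 tumours at every step but the last, from Akt1 to the start bin of Pik3ca (1.58 percentage points, SD 1.25). Pik3r1 exceeded Myc in 10 of 13 tumours even in its boundary bin, whereas Pik3ca exceeded Ccnd1 in 7 of 13.

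5hmC is generally higher where genes are dense, but these bins did not follow that order. Bins with 1 protein-coding gene had a median of 1.87% (n = 2090), and those with 5 to 9 genes one of 3.54% (n = 1390). The 3 highest bins of the set, both of Pik3r1 and that of Myc, each hold 1 protein-coding gene and lay at the 97.8th, 99.5th and 95.4th percentiles of bins of that kind. The bins of Src, Shc1 and Akt1, richer in genes, lay at the 64.9th, 54.3rd and 55.9th percentiles of theirs.

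**Figure D1:**
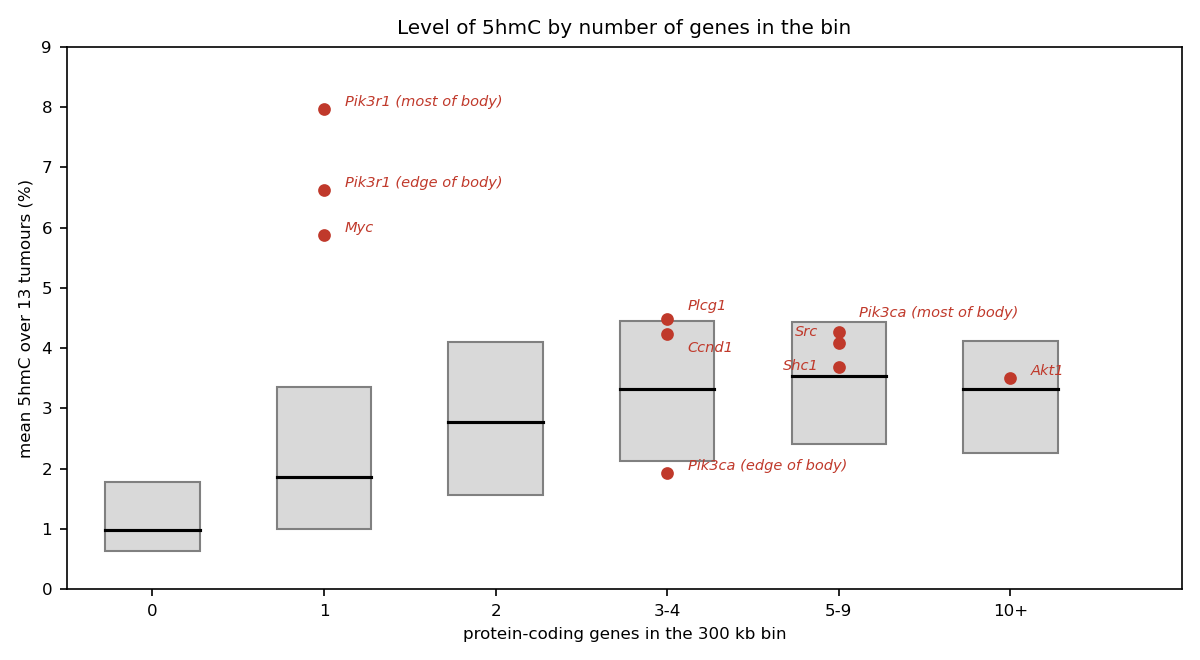
Mean 5hmC over 13 tumours (%, vertical axis) against the number of protein-coding genes in the 300 kb bin (horizontal axis). Grey boxes span the 25th to 75th percentile of all tested bins of each class with the median as a black line, and red points are the 10 bins of the 8 genes. The bins of Pik3r1 (7.97% and 6.63%) and Myc (5.89%) lie far above the box for 1 gene, whereas those of Shc1 and Akt1 lie near the median of their class.

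Src encodes the kinase that phosphorylates middle T. Its bin held 4.47%, 6.91%, 5.18% and 3.57% in the 4 Phd2+/- tumours, against 2.97%, 3.35% and 3.88% in the Phd2+/+ tumours. The sFlk1 tumours had 3.83%, 2.86% and 3.37%, against 3.44%, 5.01% and 4.29% in the empty vector tumours. Phd2+/- tumour 2 was the highest of the 13, and the groups overlapped in both models. Means were 5.03% ± 1.42 in Phd2+/- and 3.40% ± 0.457 in Phd2+/+ tumours (SD, n = 4 and 3), a difference of 1.63 percentage points (SE 0.721) that did not pass (limma adjusted p = 0.428 over all bins, unadjusted p = 0.0319). In the sFlk1 model they were 3.36% ± 0.487 and 4.25% ± 0.783 (SD, n = 3 each), a difference of -0.889 (SE 0.771, limma adjusted p = 0.836).

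Shc1 encodes the adaptor that links middle T to Ras. In its bin the Phd2+/- tumours held 5.34%, 3.52%, 5.35% and 2.81% and the Phd2+/+ tumours 3.89%, 2.74% and 2.69%. The sFlk1 tumours held 2.06%, 3.39% and 4.84% and the empty vector tumours 3.17%, 3.49% and 4.70%. Tumours of 1 group differed by up to 2.34-fold (sFlk1), and no pair of groups separated. The difference was 1.15 percentage points (SE 0.746, limma adjusted p = 0.566) for Phd2+/- minus Phd2+/+ and -0.355 (SE 0.798, limma adjusted p = 0.948) for sFlk1 minus empty vector. The second was 0.328 without sFlk1 tumour 1, 0.100 without empty vector tumour 3 and 0.331 over the 900 kb around the bin.

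Plcg1 encodes the phospholipase docked by middle T, which opens the calcium and protein kinase C branch. Its bin held 4.43%, 5.66%, 5.40% and 5.14% in Phd2+/- tumours, against 3.36%, 3.13% and 4.03% in Phd2+/+ tumours. All 4 Phd2+/- tumours thus lay above all 3 Phd2+/+ tumours. The means were 5.16% ± 0.531 and 3.51% ± 0.467 (SD, n = 4 and 3). Their difference of 1.65 percentage points (SE 0.772) did not pass over all bins (limma adjusted p = 0.443, unadjusted p = 0.0420). The sFlk1 tumours held 3.49%, 4.78% and 2.81%, against 6.73%, 3.24% and 6.0% in the empty vector tumours. There the groups overlapped through empty vector tumour 2, and the difference of -1.64 points (SE 0.825) did not pass (limma adjusted p = 0.695). It was -0.933 without empty vector tumour 1 and -2.68 without empty vector tumour 2. The difference between the effects in the 2 models was 3.28 points (SE 1.13) and did not pass (limma adjusted p = 0.250, unadjusted p = 0.00728).

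Pik3r1 encodes p85, the subunit through which middle T recruits PI3-kinase. In its main bin the Phd2+/- tumours held 9.86%, 10.6%, 7.87% and 8.51%, the Phd2+/+ tumours 9.0%, 7.04% and 6.89%, the sFlk1 tumours 6.81%, 6.66% and 7.54%, and the empty vector tumours 8.98%, 5.50% and 8.28%. Empty vector tumour 2 was the lowest of the 13 and Phd2+/- tumour 2 the highest, and the groups overlapped in both models. Differences were small against that spread: 1.57 points (SE 1.12, limma adjusted p = 0.601) for Phd2+/- minus Phd2+/+ and -0.585 (SE 1.20, limma adjusted p = 0.941) for sFlk1 minus empty vector, which was 0.113 without empty vector tumour 1. The boundary bin averaged 7.13% ± 1.10 in Phd2+/- and 6.47% ± 1.20 in Phd2+/+ tumours (SD, n = 4 and 3), and 5.99% ± 1.11 in sFlk1 and 6.77% ± 0.408 in empty vector tumours (SD, n = 3 each). Neither comparison passed there (limma adjusted p = 0.816 and 0.890). The first was -0.0271 points without Phd2+/+ tumour 2. The main bin exceeded the boundary bin in 11 of 13 tumours.

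Pik3ca encodes p110 alpha, the catalytic subunit of PI3-kinase. Its main bin held 5.29%, 5.80%, 4.02% and 4.46% in Phd2+/- and 5.26%, 3.51% and 4.43% in Phd2+/+ tumours, which overlapped (difference 0.494 points, SE 0.663, limma adjusted p = 0.806). That difference was 0.0501 without Phd2+/+ tumour 2 and 0.921 without Phd2+/+ tumour 1. The sFlk1 tumours held 4.28%, 4.46% and 3.68% and the empty vector tumours 3.47%, 3.33% and 3.49%. Here all 3 sFlk1 tumours lay above all 3 empty vector tumours, opposite to the direction of most bins. The difference of 0.709 points (SE 0.709) did not pass (limma adjusted p = 0.860). In the bin with its start the sFlk1 mean was also the higher one, 2.59% ± 0.865 against 1.71% ± 0.532 (SD, n = 3 each), with a limma adjusted p of 0.745, and the Phd2+/- mean was 2.10% ± 0.378 against 1.24% ± 0.643 in Phd2+/+ tumours (SD, n = 4 and 3; limma adjusted p = 0.534). The main bin was above the start bin in 13 of 13 tumours, by 2.35 points on average (SD 1.21), or 2.22-fold.

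Akt1 encodes the kinase that acts downstream of PI3-kinase. Its bin varied most within groups, with a pooled within-group SD of 1.38 points, against a median of 0.873 for the 4934 bins within the level range of the set. It held 4.38%, 4.42%, 2.57% and 2.78% in Phd2+/- tumours, 1.61%, 2.74% and 4.98% in Phd2+/+ tumours, 1.93%, 3.06% and 5.15% in sFlk1 tumours and 3.73%, 5.10% and 3.13% in empty vector tumours. All groups overlapped. The differences were 0.430 points (SE 0.811, limma adjusted p = 0.871) for Phd2+/- minus Phd2+/+ and -0.606 (SE 0.867, limma adjusted p = 0.904) for sFlk1 minus empty vector. They were -0.319 without Phd2+/+ tumour 1 and 0.118 without sFlk1 tumour 1.

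Ccnd1 encodes cyclin D1, which drives cells into the division cycle and is needed for mammary tumours of several oncogenes in mice. Its bin held 6.64%, 7.44%, 3.88% and 3.60% in the Phd2+/- tumours, against 3.10%, 3.23% and 3.14% in the Phd2+/+ tumours. All 4 lay above all 3, but Phd2+/- tumours 1 and 2 stood well above 3 and 4. The means of 5.39% ± 1.94 and 3.15% ± 0.0641 (SD, n = 4 and 3) gave a difference of 2.24 points (SE 0.826) or 1.71-fold. It did not pass over all bins (limma adjusted p = 0.357, unadjusted p = 0.0117). In the sFlk1 tumours the values were 4.93%, 3.52% and 2.30%, against 4.13%, 4.77% and 4.38% in the empty vector tumours, and sFlk1 tumour 1 was the highest of these 6. The difference was -0.848 points (SE 0.883, limma adjusted p = 0.862), with -0.206 without sFlk1 tumour 3 and -1.52 without sFlk1 tumour 1. That between the models was 3.09 points (SE 1.21, limma adjusted p = 0.299, unadjusted p = 0.0168).

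Myc encodes a transcription factor of growth and metabolism. In its bin the Phd2+/- tumours held 6.45%, 5.69%, 7.06% and 5.19%, and the Phd2+/+ tumours 8.04%, 6.15% and 5.28%. It was the only one of the 10 bins with a lower mean in Phd2+/- tumours, 6.10% ± 0.826 against 6.49% ± 1.41 in Phd2+/+ tumours (SD, n = 4 and 3). The difference was -0.391 points (SE 0.838) and did not pass (limma adjusted p = 0.888). That sign rested on Phd2+/+ tumour 1, the highest of all 13, without which the difference was 0.383 points. The sFlk1 tumours held 4.18%, 5.42% and 5.75% and the empty vector tumours 5.29%, 6.28% and 5.73% (difference -0.649, SE 0.896, limma adjusted p = 0.900).

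**Figure D2:**
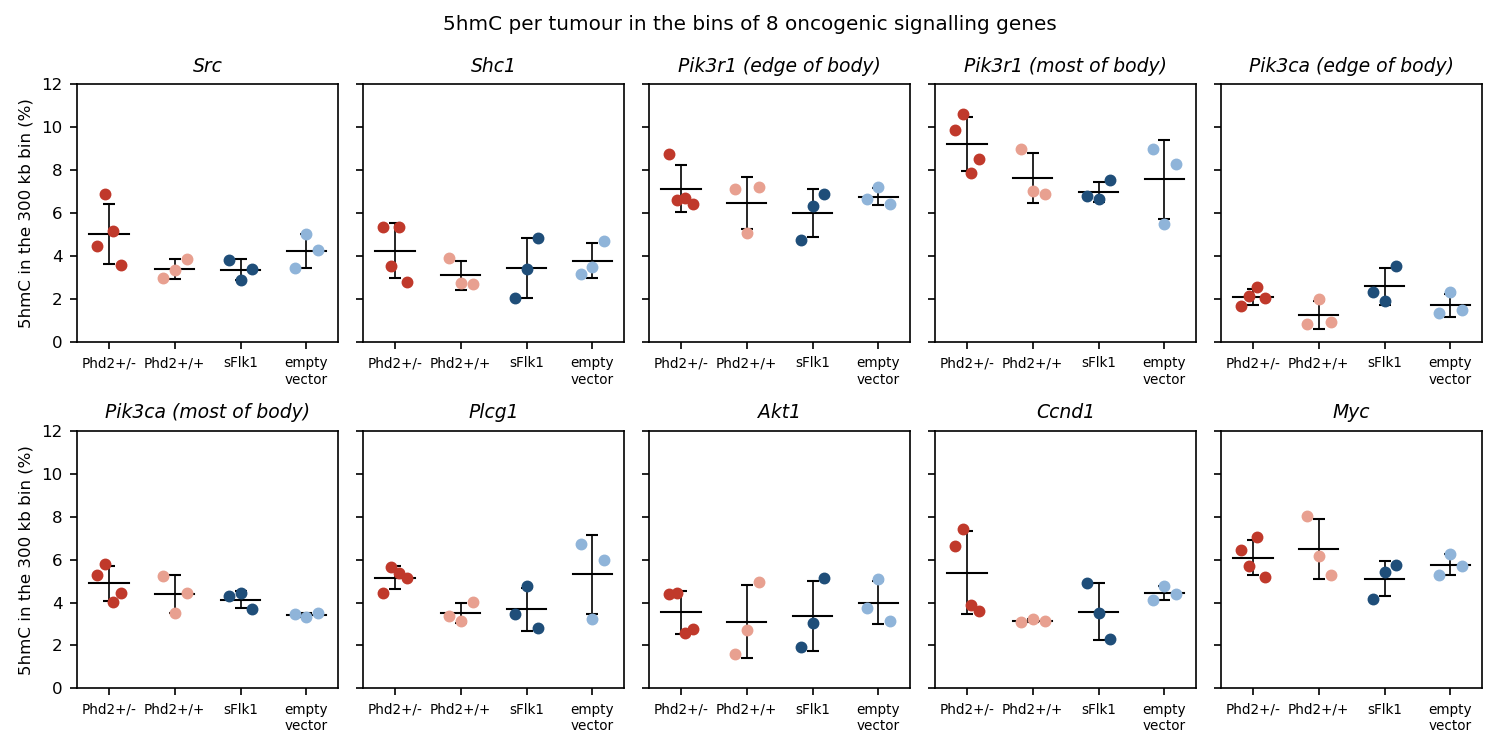
5hmC (%) in the 300 kb bin of each gene, with 1 point per tumour, the group mean as a bar and its SD as whiskers, for Phd2+/- (n = 4), Phd2+/+, sFlk1 and empty vector tumours (n = 3 each). Pik3r1 and Pik3ca have a panel for the bin with most of the gene and one for the bin with its edge. Phd2+/- lies wholly above Phd2+/+ at Plcg1 and Ccnd1, and sFlk1 wholly above empty vector at Pik3ca, while the groups overlap in the other panels.

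**Figure D3:**
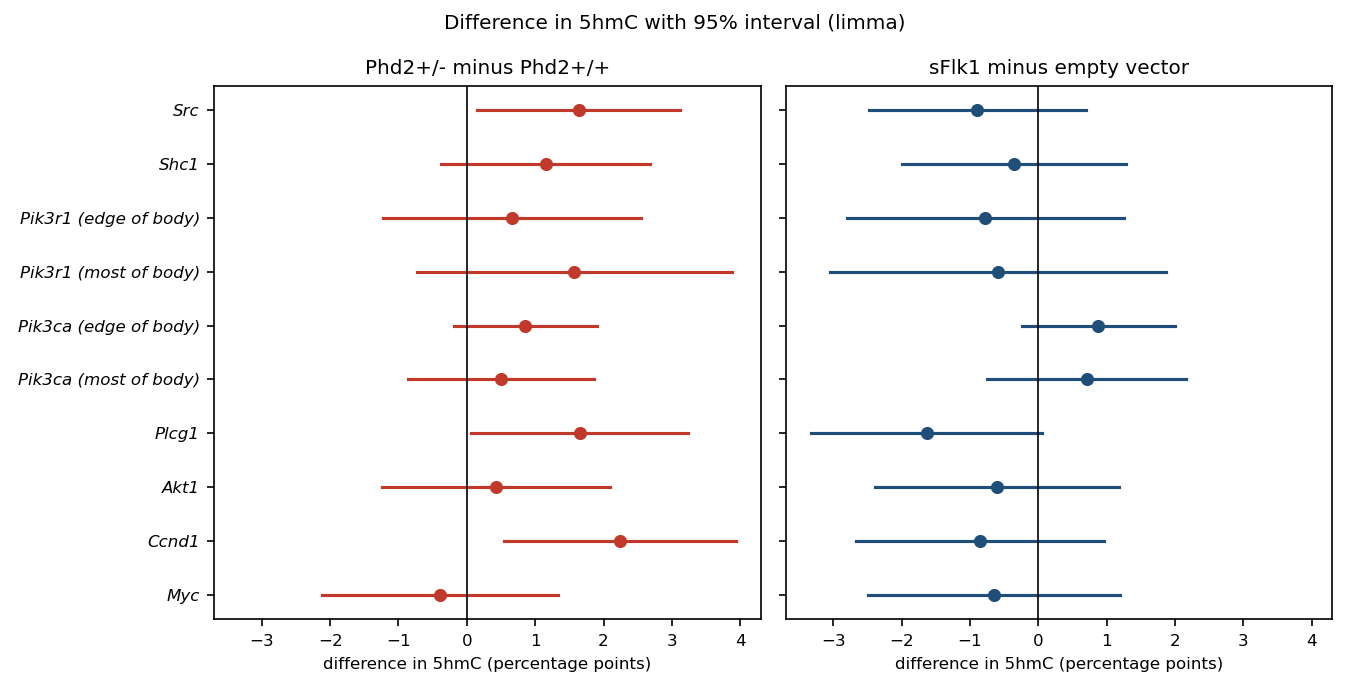
Difference in 5hmC (percentage points, horizontal axis) with its 95% interval from limma for each bin, for Phd2+/- minus Phd2+/+ (left) and sFlk1 minus empty vector (right). The unadjusted interval lies above 0 for Src, Plcg1 and Ccnd1 in the left panel and crosses 0 for the other bins there and for all 10 on the right.

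Counted together, 0 of the 10 bins passed in Phd2+/- against Phd2+/+ tumours (adjusted p from limma under 0.05), and 0.0% of all 8576 bins did. At an unadjusted p under 0.05 there were 3, all higher, as were 10.4% of all bins. With both groups apart and Phd2+/- higher there were 2, against 11.0% of all bins and 16.5% of the 4934 bins within the level range of the set. Of the 10 bins 9 had a higher mean in Phd2+/- tumours, against 75.1% of all bins and 88.7% of those within the level range. Taking each gene once, by its main bin, the median difference was 1.36 points over 8 genes, 0.38 over all bins and 0.80 over those within the level range. In sFlk1 against empty vector tumours 0 of 10 passed too, against 0.0117% of all bins. At an unadjusted p under 0.05 there were 0 as well, where 5.06% of all bins were lower and 2.12% higher. The sFlk1 mean was below the empty vector mean in 8 of 10, against 59.5% of all bins and 67.5% within the level range, and the median over 8 genes was -0.63 points, against -0.15 over all bins and -0.34 within the level range. The 1 bin with both groups apart, at Pik3ca, had the higher values in sFlk1 tumours, as did 3.43% of all bins and 2.13% of those within the level range, while 8.24% of all bins had all sFlk1 values below. For the difference between the models, 0 of 10 passed (0.0117% of all bins) and 3 had an unadjusted p under 0.05, all above 0, as had 12.0% of all bins. It was above 0 in 8 of the 10, against 72.3% of all bins and 86.7% of those within the level range.

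The tumours also differed in their genome-wide mean, and the levels of the set were compared with it. The mean over the main bins of the 8 genes was 5.86%, 6.26%, 5.17% and 4.51% in the Phd2+/- tumours, and 4.65%, 3.99% and 4.41% in the Phd2+/+ tumours. It was 3.94%, 4.27% and 4.43% in the sFlk1 tumours, and 4.87%, 4.59% and 5.00% in the empty vector tumours. Phd2+/- tumour 4 lay below Phd2+/+ tumour 1 here, while no sFlk1 tumour reached the lowest empty vector tumour. The latter held for the mean over all bins tested too. That was 2.39%, 2.48% and 2.52% in sFlk1 tumours, against 2.86%, 2.61% and 2.57% in empty vector tumours. It was 2.95%, 3.17%, 2.81% and 2.54% in Phd2+/- tumours, against 2.42%, 2.18% and 2.41% in Phd2+/+ tumours, and these groups were apart as well. As a ratio to the tumour's own mean over all bins, the set stood at 1.89 ± 0.103 in Phd2+/- and 1.86 ± 0.0517 in Phd2+/+ tumours (SD, n = 4 and 3), and at 1.71 ± 0.0553 in sFlk1 and 1.80 ± 0.129 in empty vector tumours (SD, n = 3 each). With percentages divided by the tumour's mean, 4 of 8 genes were higher in Phd2+/- tumours, against 46.8% of all bins, and 6 of 8 lower in sFlk1 tumours, against 47.9%. With the mean subtracted, 5 of 8 were higher in Phd2+/- tumours, against 41.8% of all bins, and the median over the 8 genes was 0.84 points, against -0.14 over all bins. In the same scaling 7 of 8 were lower in sFlk1 tumours, against 45.4%, with a median of -0.41 points, against 0.07 over all bins. No median of the bins within the level range is given in this scaling. Unscaled, it was 0.80 points in the Phd2 model and -0.34 in the sFlk1 model, larger in size than over all bins (0.38 and -0.15). Within the set, the tumours had no common order beyond the tumour mean. Over 28 pairs of genes and 13 tumours, Pearson r of the values less the tumour's mean had a median of 0.0685. It ranged from -0.338 to 0.678.

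The other genes of these pathways were 75 genes in 5 lists, all matched, in 74 bins since Fgf3 and Fgf4 share one. The lists were chosen with earlier results of these data known. Over all lists 71 of 75 genes had a higher mean in Phd2+/- tumours, against 75.1% of all bins and 88.7% within the level range of the 8 genes. A lower mean in sFlk1 tumours was found for 52 of 75, against 59.5% and 67.5%. With limma 0 passed in either comparison, against 0.0% and 0.0117% of all bins. At an unadjusted p under 0.05, 20 were higher in Phd2+/- tumours, against 10.4% of all bins. In sFlk1 tumours 11 were lower and 1 higher, against 5.06% and 2.12%. The median difference was 1.19 points in the Phd2 model and -0.60 in the sFlk1 model, against 0.80 and -0.34 within that level range. These shares apply to each list below too. Of the 75 genes 53 lay in a bin above the 75th percentile of all bins (3.85%). From each list a gene is named below for the smallest p in each model, so groups apart at such a gene add no support.

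Among 14 genes of the middle T complex and its adaptors, 14 had a higher mean in Phd2+/- and 10 a lower one in sFlk1 tumours. Levels ran from 0.909% at Ppp2r1a, the scaffold subunit of the PP2A that middle T binds, to 6.55% at the docking protein gene Gab1. The smallest p in the Phd2 model was at Ptk2, which encodes focal adhesion kinase. Its bin held 7.02%, 9.72%, 5.94% and 8.94% in Phd2+/- tumours, against 5.56%, 3.72% and 5.36% in Phd2+/+ tumours (difference 3.03, SE 0.909, limma adjusted p = 0.324). The smallest p in the sFlk1 model was at Ptpn11, which encodes the phosphatase SHP2, with 1.96%, 1.77% and 2.37% in sFlk1 tumours, against 3.45%, 3.85% and 3.21% in empty vector tumours (difference -1.47, SE 0.570, limma adjusted p = 0.621). At both genes the groups were apart in the model given.

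In the Ras-MAPK and PLC branch, 13 of 14 genes had a higher mean in Phd2+/- and 9 a lower one in sFlk1 tumours. Prkca, a protein kinase C gene, was highest (7.42%) and the MAP kinase kinase gene Map2k1 lowest (3.12%). Nras had 6.75%, 5.61%, 5.33% and 4.99% in Phd2+/- tumours, against 2.51%, 3.13% and 3.42% in Phd2+/+ tumours (difference 2.65, SE 0.696, limma adjusted p = 0.324). The groups were apart there, at the gene named for the smallest p of this list in the Phd2 model. Hras had 3.79%, 2.85% and 3.70% in sFlk1 tumours, against 5.95%, 4.81% and 4.23% in empty vector tumours (difference -1.55, SE 0.731, limma adjusted p = 0.673), in a bin with 19 protein-coding genes.

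In the PI3K-AKT-mTOR branch, 16 of 17 genes had a higher mean in Phd2+/- and 14 a lower one in sFlk1 tumours. Levels ran from 2.88% at Tsc1, an inhibitor of mTOR signalling, to 6.30% at Foxo3, a transcription factor that AKT shuts off. Pik3r3, a further regulatory subunit gene of PI3-kinase, had 6.65%, 7.52%, 5.34% and 7.31% in Phd2+/- tumours, against 4.23%, 4.13% and 4.68% in Phd2+/+ tumours (difference 2.35, SE 0.824, limma adjusted p = 0.342). Rptor, a component of mTOR complex 1, had 4.83%, 4.11% and 2.50% in sFlk1 tumours, against 6.37%, 7.08% and 5.64% in empty vector tumours (difference -2.55, SE 0.864, limma adjusted p = 0.517). Neither passed. The groups did not overlap, but each gene was named for the smallest p of this list in the model given.

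Of 14 cell cycle genes and Myc partners, 14 had a higher mean in Phd2+/- and 8 a lower one in sFlk1 tumours. Ccnd2, a sister gene of Ccnd1, lay at 1.30%, the lowest of this list, and Max, the partner of MYC on DNA, at 5.92%, the highest. Mnt, which competes with MYC for MAX, had 6.48%, 5.43%, 6.42% and 7.28% in Phd2+/- tumours, against 4.44%, 3.16% and 3.79% in Phd2+/+ tumours (difference 2.61, SE 0.706, limma adjusted p = 0.324). Ccnd3, another cyclin D gene, had 2.86%, 3.75% and 2.68% in sFlk1 tumours, against 5.86%, 3.99% and 4.05% in empty vector tumours (difference -1.54, SE 0.703, limma adjusted p = 0.661).

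Of 16 other mammary oncogenes, 14 had a higher mean in Phd2+/- and 11 a lower one in sFlk1 tumours. Wwtr1, which encodes the transcriptional coactivator TAZ, was highest (6.68%) and the growth factor gene Wnt3 lowest (2.21%). Fgfr1, a fibroblast growth factor receptor gene, had 4.85%, 5.90% and 4.00% in sFlk1 tumours, against 8.00%, 8.65% and 7.29% in empty vector tumours (difference -3.06, SE 0.917, limma adjusted p = 0.477). The highest sFlk1 tumour was below the lowest empty vector tumour, at the gene named for the smallest p of this list in the sFlk1 model. The smallest p in the Phd2 model was at Fgf3 and Fgf4, growth factor genes activated by mouse mammary tumour virus, whose shared bin adjoins that of Ccnd1.

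**Figure D4:**
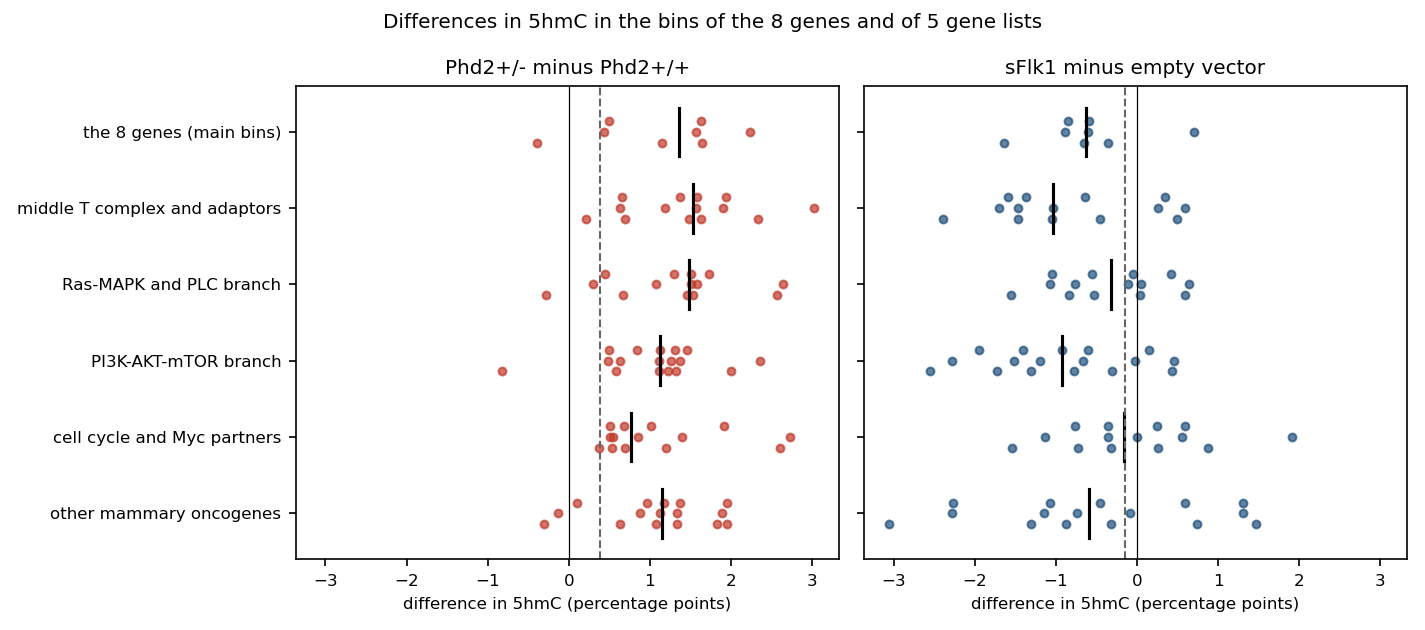
Difference in 5hmC (percentage points, horizontal axis) in the bins of the 8 genes and of the genes of 5 lists, for Phd2+/- minus Phd2+/+ (left) and sFlk1 minus empty vector (right). Each point is a gene, black bars are medians, and the dashed line is the median of all 8576 bins (0.38 points on the left and -0.15 on the right).

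The surroundings of 4 of the genes differed in shape. The main bin of Pik3ca lay above each of its neighbours, at 1.92% and 1.78%, in 13 of 13 tumours, and the median of the 10 bins around it was 1.63%. One of the 10, at 1500 kb to the left, with Cldn11, Phc3, Prkci and Skil, was higher at 5.20%. Pik3r1 was the summit of a broader rise, with 6.63% and 5.58% on its sides and a median of 4.64% over 10 bins. The bin of Myc (5.89%) had 6.79% on its left and 6.92% on its right, where Pvt1 continues. The right-hand bin was above that of Myc in the means of Phd2+/- (8.46% against 6.10%) and empty vector tumours (7.91% against 5.77%), but not in those of Phd2+/+ (6.32% against 6.49%) and sFlk1 tumours (4.46% against 5.12%). Further out, the level was down to 2.44% 4 bins away on the side of Pvt1. The bin of Ccnd1, near the end of chromosome 7, lay within a plateau of 4.02% to 5.16% over the 6 bins around it. In all 6 the Phd2+/- mean was above the Phd2+/+ mean. In the adjoining bin of Fgf3 and Fgf4 the values were 7.33%, 6.16%, 5.31% and 5.37% in Phd2+/- tumours, against 5.28%, 3.01% and 3.98% in Phd2+/+ tumours (difference 1.95, SE 0.793, limma adjusted p = 0.396). There the sFlk1 mean was 1.31 points above the empty vector mean (SE 0.848, limma adjusted p = 0.757), on the other side of 0 from the bin of Ccnd1.

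**Figure D5:**
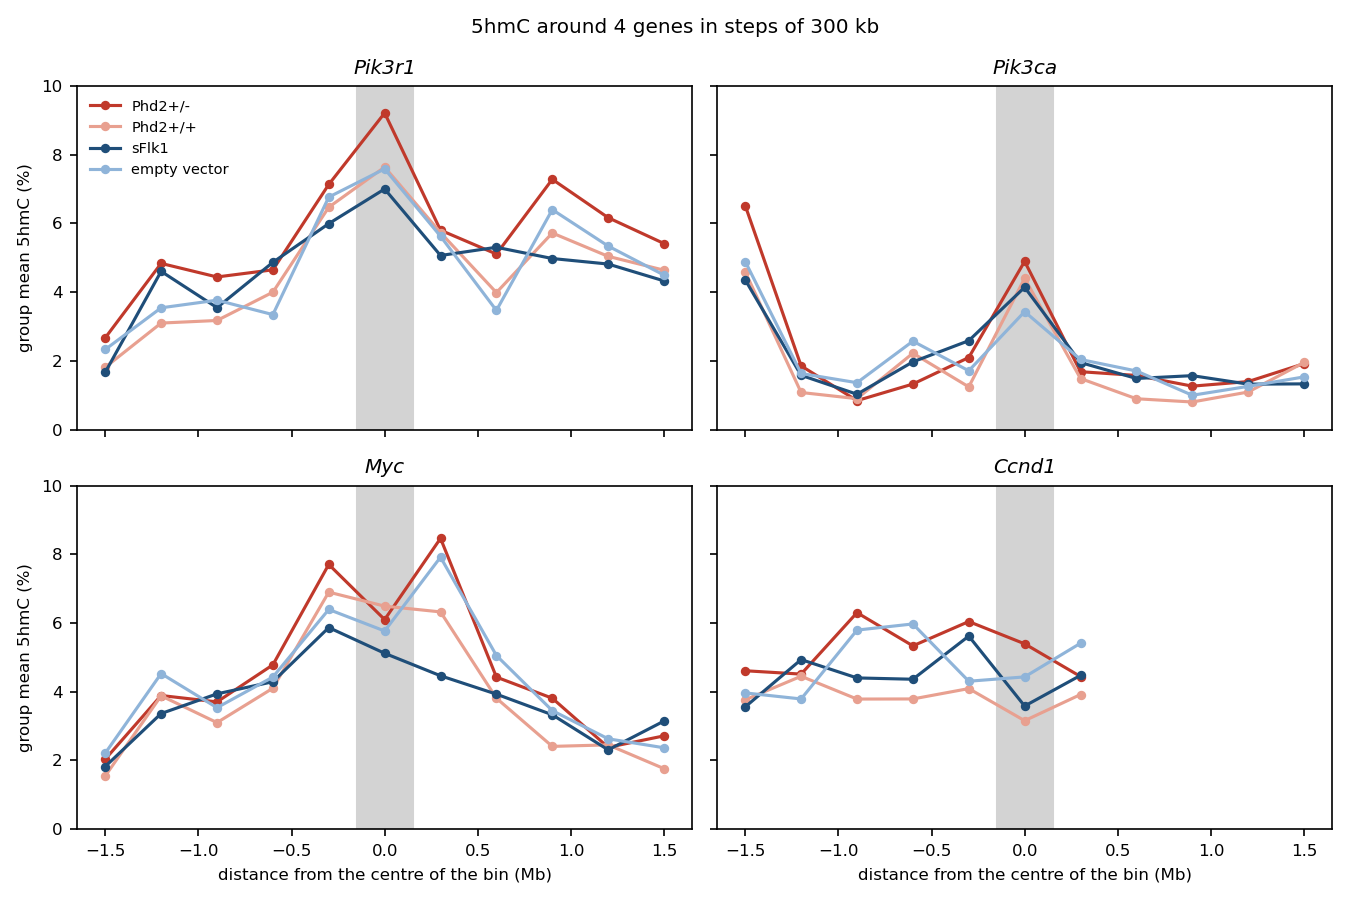
Group mean 5hmC (%, vertical axis) in 300 kb steps against the distance from the centre of the bin (Mb, horizontal axis) for Pik3r1, Pik3ca, Myc and Ccnd1, whose own bins are shaded. Pik3ca is a raised bin between low ones, with a further high bin at the left edge. The bin right of Myc is above that of Myc in Phd2+/- and empty vector tumours and below it in Phd2+/+ and sFlk1 tumours, and the profile of Ccnd1 stops at the end of its chromosome.

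For likeness of pattern, the bin of another chromosome with the highest Pearson r over 13 tumours was taken, from values less the tumour's mean. Each is the best of at least 6799 bins, and the 10th best was not far below, so these are descriptions only. Shc1 was most like a bin of chromosome 6 with Cped1, Fam3c and Wnt16 (r = 0.820, 10th best 0.732). Myc was most like a bin of chromosome 5 with Fgfr3, Nsd2 and Tacc3 (r = 0.802, 10th best 0.693). Akt1 was most like one of chromosome 6 with A2ml1 and Fkbp4 (r = 0.827). The main bin of Pik3ca was most like one of chromosome 6 with Cnbp and Copg1 (r = 0.851), and that of Pik3r1 like one of chromosome 3 with Crtc2 and Tpm3 (r = 0.913). For Src (r = 0.918) and Ccnd1 (r = 0.892) the closest bins held no protein-coding gene.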

How the data were processed

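TAB-seq libraries of 13 flash-frozen mouse breast tumours were measured. The deposited table gives the authors' 5hmC percent per 300 kb bin for each tumour. Per the submitters' processing notes, Bismark 0.13.1 and mm9 were used. The bins end at GRCm38 chromosome lengths (chromosome 1 at 195471971), so genes were placed with RefSeq GRCm38.p6 annotation. On chromosomes 2, 3, 7, 12 and 15, gene number per bin correlated best with 5hmC at that placement, among shifts of up to 10 bins. On chromosome 13, with Pik3r1, it did not (Spearman 0.102, against 0.150 at a shift of -10 bins), so its placement rests on the chromosome length alone. Shifts were in whole bins, so a smaller offset between builds would not show on any chromosome. Read counts and coverage are not in the table, so depth and counting error are unknown, and precision is given by the spread between tumours.

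Percentages were fitted with limma 3.58.1 in R 4.3.3, all 13 tumours in 1 fit with 4 group means and an intensity trend in the variance. Contrasts were Phd2+/- minus Phd2+/+, sFlk1 minus empty vector, and the first minus the second. Benjamini-Hochberg adjustment ran over the 8576 bins of the autosomes and X that were not 0 in all tumours, with a threshold of 0.05 (two-sided). Apart groups are those whose values do not overlap. The fit was tested on simulated data. Alternatives were a log2 scale with a pseudocount of 0.5, scaling to the tumour mean, other filters, no trend, windows of 900 kb, only the groups compared, a replicate block, and leaving out each tumour. From each list were named the genes with the highest and lowest level and the smallest p in each model. Members and lists were chosen with earlier results of these data known. The labels do not say whether replicates shared a litter. One result is not reported here.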

Additional observations from a re-analysis of the deposited data

Results flagged for a closer look

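Among 31 groups of 4 Phd2+/- tumours examined, 2 had a tumour far from the others, where chance gives about 1 in 20. The boundary bin of Pik3r1 had 8.77% in Phd2+/- tumour 1, with 6.44% to 6.71% in the other 3. The bin of Wwtr1 had 7.83% in Phd2+/- tumour 4, with 7.16% to 7.24% in the other 3.

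Of 31 bins examined, there were 6 in which all Phd2+/- tumours lay above all Phd2+/+ tumours while no sFlk1 tumour reached the lowest empty vector tumour. Ptk2, Ptpn11, Ccnd3 and Fgfr1 had been named for the smallest p of their list in one of these comparisons, so the number 6 supports nothing. None is a bin of the 8 genes. Taken singly, 11.0% of all bins had Phd2+/- wholly above Phd2+/+ and 8.24% had sFlk1 wholly below empty vector. The share with both at once is not given, so how unusual the 6 are, or their absence from the set, cannot be judged. The effects differed by 2.85 percentage points at Gab1 (limma adjusted p = 0.323), 5.42 at Ptk2 (limma adjusted p = 0.163), 2.84 at Ptpn11 (limma adjusted p = 0.171), 2.39 at Ccnd3 (limma adjusted p = 0.305) and 4.89 at Fgfr1 (limma adjusted p = 0.163). The sixth is the bin with most of Pvt1, next to that of Myc, which was chosen after its values were seen. It held 8.12%, 7.82%, 9.18% and 8.74% in Phd2+/- tumours, against 7.30%, 5.97% and 5.69% in Phd2+/+ tumours. It held 5.27%, 4.61% and 3.51% in sFlk1 tumours, against 9.68%, 7.75% and 6.31% in empty vector tumours. The effects differed there by 5.59 points (SE 1.40, limma adjusted p = 0.163). The difference between the models passed for none of the 6.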

How the results depend on the processing

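No setting tried brought any of the 10 bins past an adjusted p of 0.05 with limma, and depth cannot be judged. Counts of bins that passed over the genome are not given for windows of 900 kb. At an unadjusted limma p under 0.05, those windows gave 2034 bins in the Phd2 model, against 930 in the main fit. They gave 687 against 616 in the sFlk1 model, and 2134 against 1116 for the difference between the models. Neighbouring windows overlap. For Phd2+/- minus Phd2+/+ the number of bins that passed was 0, but 1 on the log2 scale and 1 with the replicate block, and 0 to 1 when tumours were left out. For sFlk1 minus empty vector it was 1, and 1 to 4 when tumours were left out. For the difference between the models it was 1, but 2 on the log2 scale, 2 with the tumour mean subtracted, 0 with only bins above 0 in all tumours, 0 with no filter and 3 with no trend, and 1 to 3 when tumours were left out. The replicate numbers did not pair the tumours (correlations of same-numbered tumours from -0.0934 to -0.00429). With the replicate block, where Phd2+/- tumour 4 has no partner, the difference between the models at the start bin of Pik3ca was 0.00130, of opposite sign.

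Signs also turned under scaling. Divided by the tumour mean, Phd2+/- minus Phd2+/+ was -0.255 at the boundary and -0.0522 at the main bin of Pik3r1, -0.168 at the main bin of Pik3ca and -0.105 at Akt1. With the mean subtracted it was -0.0330 at Pik3ca and -0.0966 at Akt1. Divided, sFlk1 minus empty vector was 0.0213 at the main bin of Pik3r1, and the difference between the models was -0.153 and -0.0735 at the boundary and main bins of Pik3r1 and -0.552 at Myc, where it was -0.488 with the mean subtracted. On the log2 scale it was 0.15 at the start bin of Pik3ca. Over 900 kb, sFlk1 minus empty vector was 0.331 at Shc1 and 0.0549 at the boundary bin of Pik3r1, Phd2+/- minus Phd2+/+ was 0.852 at Myc, and the difference between the models was 0.0172 at the main bin of Pik3ca.

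Leaving out 1 tumour gave -0.0271 to 1.03 at the boundary bin of Pik3r1, -0.319 to 1.36 at Akt1 and -0.996 to 0.383 at Myc for Phd2+/- minus Phd2+/+. For sFlk1 minus empty vector it gave -1.06 to 0.328 at Shc1, -1.63 to 0.113 at the main bin of Pik3r1 and -1.49 to 0.118 at Akt1. For the difference between the models it gave -0.370 to 0.463 and -0.659 to 0.212 at the start and main bins of Pik3ca, and -0.347 to 1.03 at Myc. Without a change of sign, sFlk1 minus empty vector ran from -1.29 to -0.508 at Src, -1.22 to -0.148 at the boundary bin of Pik3r1, 0.392 to 1.22 at the start bin of Pik3ca, and -0.964 to -0.181 at Myc. Phd2+/- minus Phd2+/+ ran from 1.01 to 2.12 at Src and 1.55 to 2.83 at Ccnd1. Src, Plcg1 and Ccnd1 kept their signs in every setting. The causes were not tested.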
